A study of Oidiodendron maius Zn with 6 samples.

Results

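Among the 16703 gene models of the fungus Oidiodendron maius Zn, 105 had their highest transcript level on peat, at least 2-fold above both the level on BSA and the level on glucose. They were chosen on the measured values, as follows. Total gene reads were summed over the 2 libraries of a condition and expressed as CPM, the reads of a model per 1000000 reads of that sum. BSA and peat were then rescaled so that the median ratio to glucose was 1 over the 7309 models with at least 20 CPM in all 3 conditions. A member had at least 20 CPM in peat, and its CPM + 0.5 was at least 2 times that in glucose and at least 2 times that in BSA. The 105 were 1.3% of the 8097 models that reached 20 CPM on peat, and all of them passed that minimum because it is part of the rule. Exchanging the conditions in the rule gave 108 models highest on BSA and 86 highest on glucose.

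Mycelium was grown without a host plant for 45 days at pH 4.7 on plates of modified Melin-Norkrans medium, each covered with a sterile cellulose membrane, per the labels' protocols. The amendments were peat (about 10 g dry weight), BSA (bovine serum albumin, a protein, 0.1 g per L) and glucose (1 g per L). The amendments differ in kind and in amount, which cannot be told apart, and the recipe of the basal medium also lists glucose and an ammonium salt. Whether these were left out of the peat and BSA plates is not stated, and the titles of the glucose libraries carry the code NH4. All groups are 1 strain, named Zn. The files pair no protein ID with a gene name, so the label mycelium could not be checked against defining genes and no member is given a function.

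Oidiodendron maius is an ericoid mycorrhizal fungus, a root partner of heather and blueberry, and also lives as a decomposer of Sphagnum peat. Fungi take up simple sugars directly, whereas polymers such as protein, cellulose, pectin and phenolic plant compounds must first be cut outside the cell by secreted enzymes. In many filamentous fungi, glucose represses genes for the use of other carbon sources, a control known as carbon catabolite repression. Peat offers plant polymers, and BSA offers protein.

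Of each medium, 1 library of paired reads and 1 of single reads (75 bp) were sequenced. The paired-read libraries held 893061 to 1043870 total gene reads and the single-read libraries 20008329 to 24690601. The libraries of a condition deviated from each other by 1.06 times the variance of sampling (chi-square per degree of freedom, 10373 models, read layout effect removed), and by 1.19 times over the 81 members with enough reads. With single-read libraries of other conditions, the value over all models was 36.3 to 42.7. Whether 1 culture or 2 gave the libraries of a medium is not stated in the labels. Because they differed by little more than sampling noise, the pair was counted as 1 sample, and n = 1 for peat, for BSA and for glucose. There is no replicate check of any difference given here, and the values describe these 3 samples. Intervals are exact (Clopper-Pearson) at 95% and cover counting error only. Transcript levels are relative to all gene reads, and more RNA per cell cannot be told apart from more cells that carry the transcript.

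The members together took 1.71% of the gene reads on peat (interval 1.705 to 1.715), 0.346% on BSA (0.344 to 0.349) and 0.499% on glucose (0.496 to 0.502). The paired-read and single-read libraries gave nearly equal shares, at 1.72% and 1.71% for peat, 0.35% and 0.346% for BSA, and 0.493% and 0.499% for glucose. Both peat libraries lay above the other 4 libraries in all 105 members, which the choice of members largely fixes. The 10 members with the most reads on a medium, which were not the same 10 each time, held 52.1% of the members' reads on peat, 46% on BSA and 54.9% on glucose. No such share over all models is set beside these, so they are a description only.

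Most members stood a little above the threshold of the rule. The smaller of their 2 folds, peat over BSA or peat over glucose, was from 2 to under 3 in 62 members and from 3 to under 4 in 19. In 24 it was at least 4, in 10 at least 8 and in 2 at least 100. The median fold was 3.65 over BSA and 3.04 over glucose. In the background, an excess of peat over BSA of 2-fold or more was found in 3.4% of the 8495 models that reached 20 CPM on peat or BSA. Over glucose the share was also 3.4%, of 8622 models. With 4-fold or more these shares were 0.706% over BSA and 0.719% over glucose. Since the rule used both comparisons, the members' folds are a description and carry no test. The plot of both ratios shows a dense field near the corner of the thresholds and a thin tail that reaches far along both axes.

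**Figure D1:**
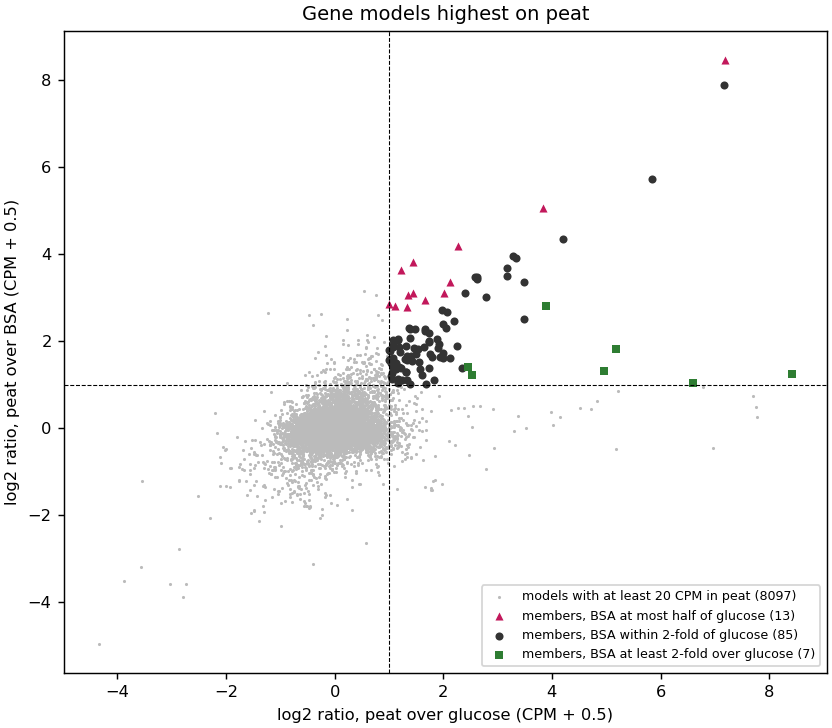
Log2 ratio of CPM + 0.5, peat over glucose (x axis) against peat over BSA (y axis), with 1 point per gene model; grey points are the 8097 models with at least 20 CPM in peat, coloured symbols the 105 members by their ratio of BSA to glucose, and dashed lines the 2-fold thresholds. Most members lie near the corner of the thresholds, and only 2 members have both ratios at 100-fold or more.

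Just inside the threshold were protein IDs 59269, 148122 and 106850, each with a smaller fold of 2.01. Protein IDs 28165, 170230 and 177792 were just outside, with 1.99, 1.99 and 1.98. For the minimum level, the lowest members had 20.7, 20.7 and 20.9 CPM in peat, and the 3 highest models left out each had 19.3. Models on the 2 sides of a threshold thus differed by little.

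Ranked by the smaller of the 2 folds, the first 2 members were low on both other media. Protein ID 172609 (595 nt) had 322 and 304 CPM in the paired-read and single-read libraries of peat, 0 and 0.386 in those of BSA, and 2.06 and 1.59 in those of glucose. It was 826-fold higher on peat than on BSA (interval 401 to 2054), from 7607 and 7 reads. Against glucose, with 37 reads, it was 189-fold higher on peat (137 to 269). Both peat libraries were high and the 4 others near 0. Protein ID 106753 (1840 nt) had 967 and 976 CPM on peat, 1.23 and 3.75 on BSA, and 12.4 and 5.99 on glucose. Its fold was 268 over BSA (212 to 345) and 156 over glucose (132 to 185). This model was thus low on both other media, with more reads than 172609, and no library of these overlapped with peat. The size of these folds rested on the single-read libraries. Without that of BSA, 172609 had 0 BSA reads and was at least 85.2-fold higher on peat, and 106753 was 818-fold higher (147 to 32310) from 1 BSA read. Without the glucose single-read library, 106753 was 79.1-fold higher on peat than on glucose (45.3 to 153).

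Under 2 CPM on both BSA and glucose were 4 members, among them 172609. The 3 others, named after their values were seen, reached lower peaks on peat. Protein ID 58456 (1623 nt) had 108 and 95.6 CPM on peat, 0 and 1.38 on BSA, and 2.06 and 1.14 on glucose, a fold of 72.9 over BSA (49.2 to 113) and of 81.8 over glucose (56.1 to 124). Protein ID 44643 (1668 nt) had 39.5 and 43.4 CPM on peat, 2.47 and 1.6 on BSA, and 3.09 and 1.82 on glucose, 26.4-fold over BSA (18.5 to 39.1) and 23.1-fold over glucose (17 to 32.1). These 2 models had about the same level on BSA as on glucose, by overlapping library values. Protein ID 126476 (1722 nt) had 20.7 and 21.5 CPM on peat, 0 and 0.165 on BSA, and 2.06 and 0.999 on glucose. It was 136-fold over BSA (46.1 to 659), from 3 BSA reads, and 20.5-fold over glucose (13.7 to 32.3). Its level on peat was barely above the 20 CPM minimum. The folds over BSA were at least 26.9 for 58456 and at least 5.99 for 126476 when the BSA single-read library was left out. Without that of glucose, the folds over glucose were 46.7 for 58456 (12.9 to 386), 14 for 44643 (4.78 to 68.1) and 10.4 for 126476 (2.87 to 86.3), from 2 to 3 glucose reads.

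At the upper end there was also a member with a high level on all 3 media. Protein ID 163956 (2002 nt), also chosen with its values in view, had 1026 and 996 CPM on peat, 101 and 87.7 on BSA, and 98 and 111 on glucose. It was 11.3-fold over BSA (10.8 to 11.9) and 9.06-fold over glucose (8.69 to 9.44). The 4 libraries of BSA and glucose overlapped, far below those of peat. Of all members, 37 had at least 20 CPM on both BSA and glucose, 15 on 1 of them, and 53 on neither. The shares are 35.2%, 14.3% and 50.5% of the members, against 92.4%, 5.56% and 2.08% of all 8097 models that reached 20 CPM on peat. The rule used these levels, so nothing is read from the difference. With a minimum of 50 CPM in peat, 9 members were under 20 CPM on both, and with a minimum of 10 CPM, 87.

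**Figure D2:**
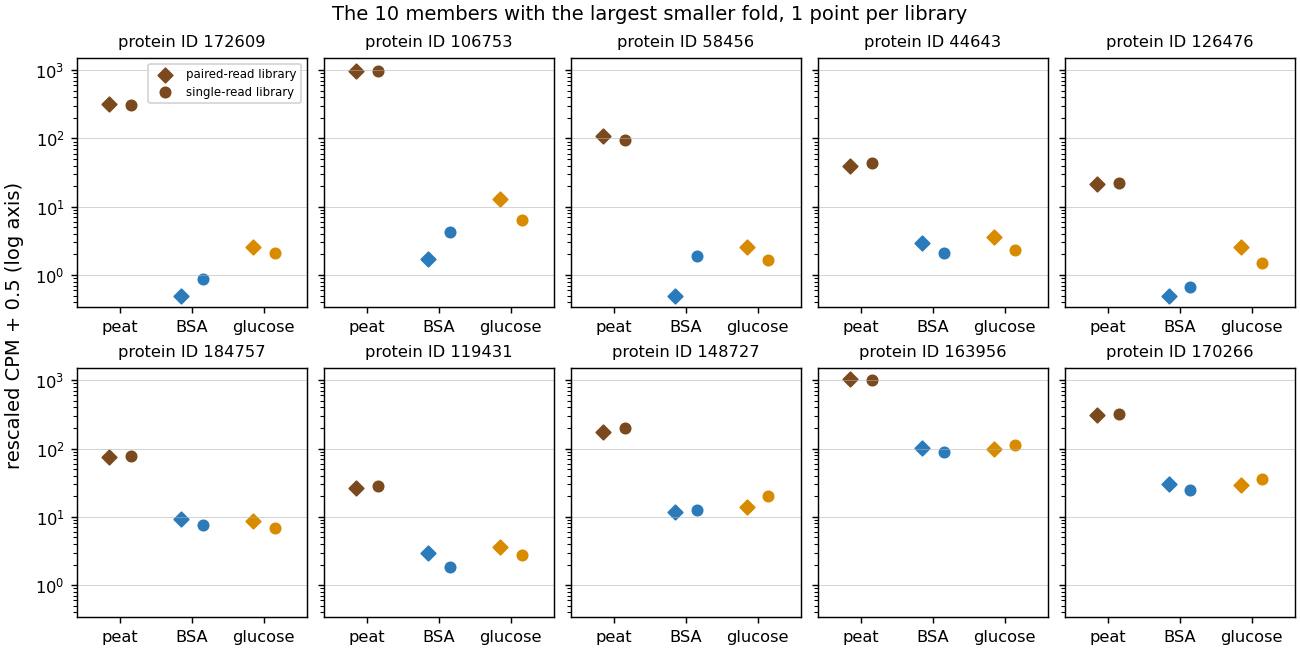
Rescaled CPM + 0.5 (log axis) in each library for the 10 members with the largest smaller fold, with diamonds for paired-read and circles for single-read libraries. In each panel both peat libraries lie above the 4 others, and the spread between layouts is visible where a condition has few reads, as for 126476 with 3 reads on BSA.

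Per length, the 2 members with the highest levels on peat were not the 2 with the largest smaller fold. Protein ID 183593 (479 nt) had 4728 rescaled RPKM (CPM per kilobase of model) on peat, the 13th highest level of all models, and protein ID 148651 (969 nt) had 1293, the 48th. In CPM, 183593 had 2454 and 2257 on peat, 173 and 180 on BSA, and 1033 and 967 on glucose. It was 12.6-fold over BSA (12.2 to 13) and 2.34-fold over glucose (2.3 to 2.37). The model 148651 had 1246 and 1253 CPM on peat, 81.5 and 88.4 on BSA, and 459 and 461 on glucose, 14.2-fold over BSA (13.5 to 15) and 2.72-fold over glucose (2.66 to 2.78). Both models thus formed the same staircase, highest on peat, intermediate on glucose and lowest on BSA, and the libraries of the 3 conditions did not overlap. On glucose, 183593 alone held 19.4% of the reads of all members. Among the others, protein IDs 182936 (354 nt), 169479 (1390 nt) and 20510 (1154 nt) followed, with 822, 665 and 581 RPKM on peat. The 2 members with the largest smaller fold, 106753 and 172609, came directly after these, with 530 and 512 RPKM.

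The rule sets a ceiling for BSA and for glucose but not their order, and the members differed in it. On BSA, 73 members were lower than on glucose and 32 were higher, with a median ratio of 0.814, against 0.989 over all models with at least 20 CPM in peat. The share that was lower on BSA than on glucose was 69.5% of the members and 51.3% of those models. Under 4 other scalings, 71 to 81 of the 105 members were lower on BSA than on glucose, beside 44.1% to 62.5% of those models. Within 2-fold of each other on BSA and glucose were 85 members. In 13 members (12.4%) BSA was at least 2-fold below glucose, where the background was 2.79% of the 8097 models. In 7 members (6.67%) BSA was at least 2-fold above glucose, where the background was 4.09%. Over all 8639 models that reached 20 CPM on BSA or glucose, 3.21% were past 2-fold lower and 4.79% past 2-fold higher on BSA. These ratios come from the values that chose the members and carry no test. The staircase of 183593 and 148651 belonged to the 13, as did 172609 and 126476, whose BSA and glucose levels were both near 0. Together the 13 held 25.3% of the members' reads on peat, 8.76% on BSA and 32.3% on glucose. The count of 13 rested in part on the single-read libraries, and was 23 without that of BSA. The count over all models moved with it, to 649 without that library, against 277 with it. The count of 7 was 12 without the glucose single-read library, where that over all models was 625, against 414 with it.

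**Figure D3:**
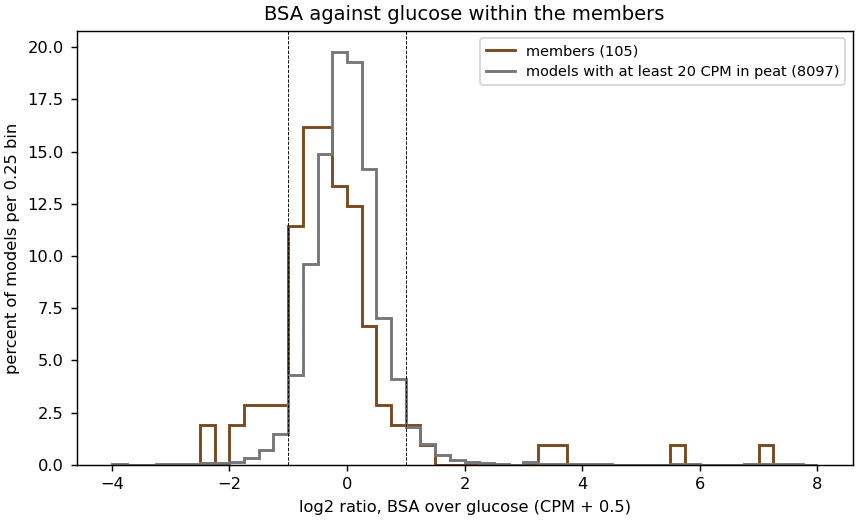
Distribution of the log2 ratio of CPM + 0.5, BSA over glucose, as percent of models per bin, for the 105 members (brown) and for the 8097 models with at least 20 CPM in peat (grey); dashed lines mark 2-fold. The members' median of -0.3 lies left of 0, with 13 members beyond the lower line and 7 beyond the upper line.

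The 7 members that were at least 2-fold higher on BSA than on glucose included those with the lowest glucose levels. Protein ID 20532 (942 nt) had 427 and 438 CPM on peat, 189 and 185 on BSA, and 2.06 and 0.727 on glucose. It was 2.37-fold over BSA (2.28 to 2.46) and 559-fold over glucose (354 to 944) from 18 glucose reads. By CPM + 0.5 its ratio over glucose was 342. Protein ID 20510 had 635 and 672 CPM on peat, 316 and 325 on BSA, and 4.13 and 6.54 on glucose, 2.07-fold over BSA (2.01 to 2.13) and 104-fold over glucose (88.5 to 123). Both were thus low on glucose alone, and peat exceeded BSA by little more than the threshold. Protein IDs 106314 (1119 nt) and 183832 (962 nt) showed the same order at low levels. The model 106314 had 15.8 and 20.9 CPM on peat, 9.88 and 5.34 on BSA, and 0 and 0.0908 on glucose, from 2 glucose reads, a fold of 3.74 over BSA (3.03 to 4.66) and of 238 over glucose (65.6 to 1971). For 183832 the values were 20.7 and 21.9 CPM on peat, 7.41 and 8.54 on BSA, and 0 and 0.227 on glucose, 2.57-fold over BSA (2.15 to 3.09) and 100.4-fold over glucose (42.8 to 311). These 4 models were named after their values were seen. Without the glucose single-read library, the folds over glucose were 213 for 20532 (58.9 to 1758), 163 for 20510 (63.6 to 598), at least 6.71 for 106314 and at least 7.08 for 183832. Leaving out the BSA single-read library, 106314 stood 2.17-fold over BSA (1.09 to 5.06). Leaving out the peat single-read library, 20510 did not meet the rule because its smaller fold fell under the threshold. The model 106314 did not meet it either, because its 15.8 CPM in the paired-read library of peat lay under the minimum level.

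**Figure D4:**
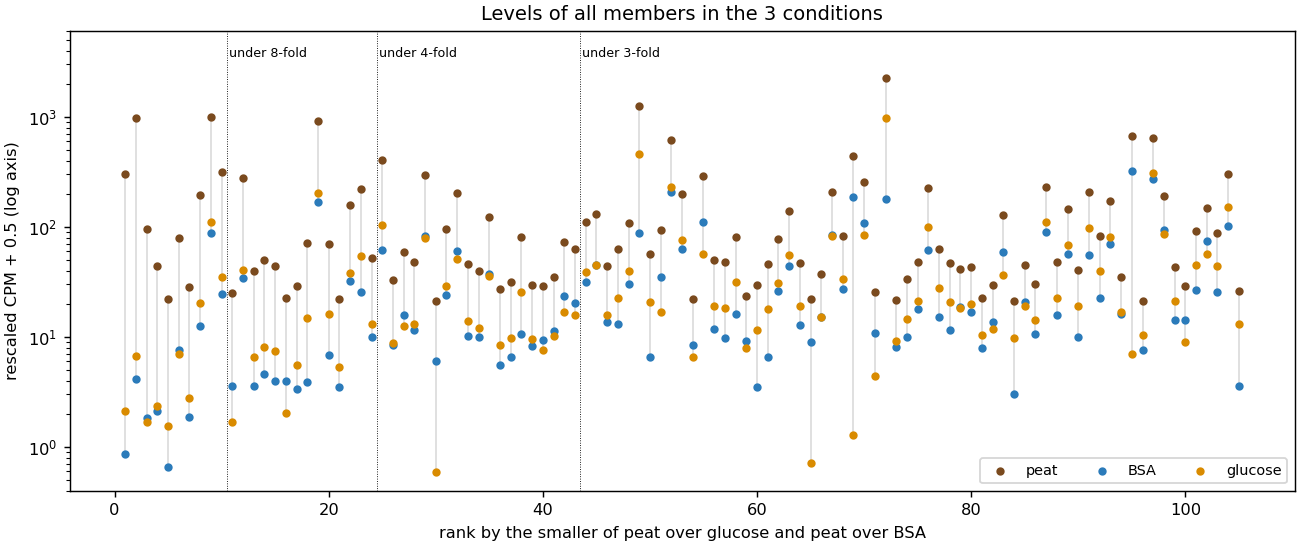
Rescaled CPM + 0.5 (log axis) of all 105 members on peat, BSA and glucose, ranked by the smaller of peat over glucose and peat over BSA; grey lines join the lowest and the peat value, and dotted lines mark where the smaller fold falls under 8, 4 and 3. Peat is the highest point of every member, and the order of BSA and glucose below it changes from member to member.

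Some members had close protein ID numbers. In numeric order of IDs, with at most 2 other models between neighbours, 16 members fell into 2 groups of 3 and 5 groups of 2, and 89 stood alone. How often other models fall into such groups was not counted, so nothing is read from these numbers. Whether close ID numbers mean neighbouring places in the genome is not given in the files. One group of 3 was 172600, 172605 and 172609, consecutive in the deposited tables. Beside the steep 172609, the 2 others had modest differences. Protein ID 172600 (1861 nt) had 68.2 and 61.8 CPM on peat, 17.3 and 20.2 on BSA, and 8.25 and 15.5 on glucose, 3.1-fold over BSA (2.76 to 3.47) and 4.07-fold over glucose (3.63 to 4.59). Protein ID 172605 (2223 nt) had 24.7 and 28.9 CPM on peat, 13.6 and 8.65 on BSA, and 3.09 and 7.31 on glucose, 3.24-fold over BSA (2.73 to 3.85) and 4.02-fold over glucose (3.39 to 4.8). In both, the peat libraries lay above the 4 others. By reads summed over both libraries BSA and glucose came within 2-fold, but in the paired-read libraries, with few reads, BSA was higher by more than that. Without the glucose single-read library the folds over glucose were 7.54 for 172600 (3.82 to 17.5) and 9.3 for 172605 (3.17 to 45.2), from 8 and 3 glucose reads. In the paired-read libraries alone, the ratio of CPM + 0.5 of 172605 over BSA was 1.84, under the threshold, where it was 3.12 with both libraries.

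The other group of 3 held protein IDs 169479, 169483 and 169514, with 2 models between them that were no members. Protein ID 169479 had 962 and 923 CPM on peat, 184 and 166 on BSA, and 220 and 200.1 on glucose, 5.56-fold over BSA (5.35 to 5.77) and 4.6-fold over glucose (4.46 to 4.75). Protein ID 169483 (2405 nt) had 229 and 218 CPM on peat, 30.9 and 24.6 on BSA, and 56.7 and 53.4 on glucose, 8.78-fold over BSA (7.99 to 9.67) and 4.08-fold over glucose (3.83 to 4.34). Protein ID 169514 (1718 nt) had 137 and 129 CPM on peat, 43.2 and 44.6 on BSA, and 41.3 and 44.2 on glucose, 2.91-fold over BSA (2.7 to 3.14) and 2.94-fold over glucose (2.74 to 3.16). The 3 members shared the direction but not the size of the difference. The 2 models between them had no such excess: 169490 was at 12.7 CPM on peat, 27.3 on BSA and 29.2 on glucose, and 169501 at 12.8 CPM on peat, 13.8 on BSA and 12.5 on glucose. The groups of 2 included 146047 (861 nt) and 146048 (1133 nt), which had nearly equal profiles of 47 and 49.1 CPM on peat, 9.23 and 11.3 on BSA, and 17.8 and 18.5 on glucose.

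The members 20510 and 20532 lay in a run of 10 models from 20506 to 20533 in which peat exceeded glucose 4-fold or more throughout. Such an excess was found in 0.719% of the 8622 models that reached 20 CPM on peat or glucose. The run was singled out after its values were seen. How often other models form such runs is not given here, so nothing is read from its length. In all 10 peat was also above BSA, with folds from 1.2 for 20533 (interval 1.14 to 1.27) to 2.77 for 20530 (2.28 to 3.38). The threshold of 2-fold over BSA thus divided the run. The model 20530 (378 nt) had a larger fold over BSA than both members but only 19.3 CPM on peat, under the minimum of 20. The next fold below the threshold was that of 20529, at 1.93 (1.85 to 2.01).

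**Figure D5:**
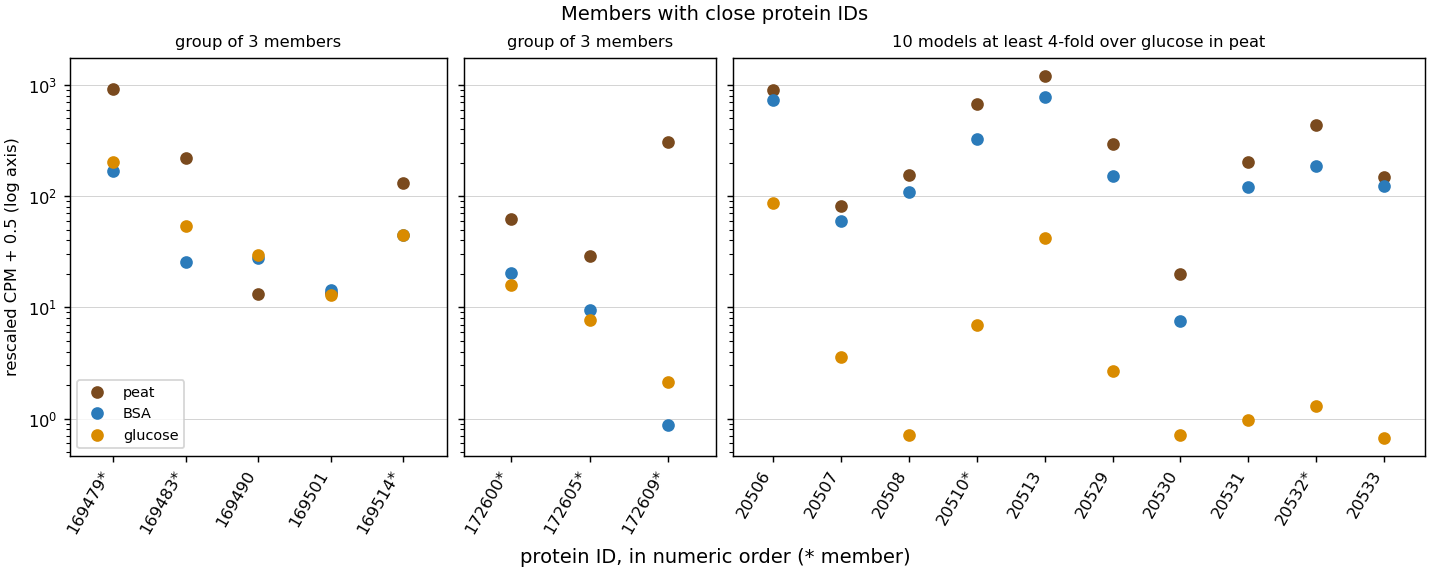
Rescaled CPM + 0.5 (log axis) on peat, BSA and glucose for the 2 groups of 3 members with close protein IDs, with the models between them, and for the run of 10 models at least 4-fold over glucose on peat; asterisks mark members. In the run, peat lies close above BSA and glucose lies far below, whereas in the 2 groups BSA and glucose lie near each other in most models.

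The rule did not use the length of the models. The members' lengths ranged from 354 to 4080 nt with a median of 1638 nt, against 1464 nt over models with at least 20 CPM in peat and 1203 nt over all models with a length. From 1000 to under 2000 nt were 63 members (60%), against 47.3% of those models. Under 500 nt were 2 members (1.9%), against 3.51%, and 5 members (4.76%) had at least 3000 nt, against 9.78%. These shares are a description with no test, and the class under 500 nt holds too few members to read a difference from. After removal of the trend of the ratios with length, 94 of the 105 still met the rule, and 15 other models met it as well.

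Reads shared between gene models touched 1 member. In 104 members every read was unique, and 1.65% of all models past 20 CPM on peat had shared reads. The exception was protein ID 50154 (576 nt), whose reads were shared for 96% on peat, 94% on BSA and 96.5% on glucose. By total reads it had 173 and 192 CPM on peat, 64.2 and 94.3 on BSA, and 64 and 86.2 on glucose, a smaller fold of 2.05. By its 190 unique reads on peat, 106 on BSA and 68 on glucose, it was 1.36-fold over BSA (1.07 to 1.74) and 2.57-fold over glucose (1.94 to 3.45). Its place among the members is therefore uncertain.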

How the data were processed

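Transcript levels were measured by RNA-seq in 6 libraries, 1 paired-read and 1 single-read library for each of peat, BSA and glucose. The deposited counts are whole-number unique and total gene reads per Oidma1 gene model, per the file headers. RPKM was deposited by the authors beside the counts. It gave 1 whole-number length per model (90022 values, tolerance 0.01 nt) and was used for lengths only. The trimming, aligner and counter were not given in the sources used here.

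CPM, rescaling, the 2-fold rule, folds and exact intervals were computed with Python 3.11.15 and scipy 1.17.1. A count of 0 was set to 3 reads over the libraries of a condition, and the fold written as a lower bound. With 1 sample per condition no test was run. TMM factors (edgeR 4.0.16) and size factors (DESeq2 1.42.0) served as alternative scalings. The code of the rule was tested on simulated counts that held sampling noise only, so that test cannot show how cultures vary.

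Members and comparisons were chosen with earlier results of these data known. Named were the 2 members with the largest smaller fold, the 2 with the most CPM on peat, groups of 3 or more with close IDs and the 3 nearest to the threshold on each side. Other IDs were singled out after their values were seen. Gene lists by product name and promoter motifs were written down but could not be filled without an annotation.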

Additional observations from a re-analysis of the deposited data

How the results depend on the processing

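All alternatives were written down with earlier results of these data known. No paired analysis was possible because no result here comes from a test, and each condition counts as 1 sample. With unique gene reads 104 of the 105 members met the rule, and with TMM factors, with DESeq2 size factors or without the 20 most abundant models all 105 did (110, 114 and 110 members). With total count scaling 100 of the 105 did. By the mean CPM of the 2 libraries 91 of the 105 did, among 109 members. Leaving out 1 library gave 104 to 115 members, with 86 to 105 of the 105 among them. In 77 of the 105 both folds stayed at 2 or more each time, a count that did not apply the minimum of 20 CPM. The paired-read libraries alone gave 129, of which 78 were among the 105. The limits that define a member moved the count most. A minimum of 50 CPM left 56 and no minimum gave 220. At least 1.5 times gave 268 and at least 4 times 24.

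Members under 20 CPM on BSA and on glucose (53) numbered 84 at 1.5 times, 18 at 4 times, 87 with a minimum of 10 CPM, 9 with 50 and 168 with none, and 52 to 61 without 1 library. Members with BSA below glucose past the fold (13) numbered 63 at 1.5 times, 0 at 4 times, 8 with a minimum of 50 CPM, 23 with none, 23 by the mean CPM of the 2 libraries, 27 in paired-read libraries and 12 to 23 without 1 library, highest without the BSA single-read library. Those with BSA above glucose (7) numbered 21 at 1.5 times, 0 at 4 times, 3 with a minimum of 50 CPM, 11 with none, 11 in paired-read libraries and 7 to 12, highest without the glucose single-read library.

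Models past the fold changed too. For peat over BSA (289) they numbered 732 at 1.5 times, 60 at 4 times, 164 with a minimum of 50 CPM, 691 with none, 466 in paired-read libraries and 288 to 506 without 1 library, highest without the BSA single-read library. For peat over glucose (293) they numbered 917 at 1.5 times, 62 at 4 times, 181 with a minimum of 50 CPM, 576 with none, 454 in paired-read libraries and 290 to 488 without 1 library, highest without the glucose single-read library. BSA over glucose gave 414 higher models, with 1142 at 1.5 times, 68 at 4 times, 740 with no minimum and 410 to 625 without 1 library, highest without the glucose single-read library. It gave 277 lower models, with 1196 at 1.5 times, 21 at 4 times, 424 with a minimum of 10 CPM, 161 with 50, 778 with none, 588 in paired-read libraries, 455 with total count scaling, 147 without the length trend and 270 to 649 without 1 library, highest without the BSA single-read library. Apart from limits and left-out reads, whose effect follows from their construction, the cause was not tested.

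Peat stayed above BSA and glucose in all 528 values of the 12 members named by rule, which their choice largely fixes. Of the 105, 36 had a fold that moved by over 1.5 times without 1 library, 24 without the BSA and 20 without the glucose single-read library. Depth limits the folds over conditions with few reads, since 3 reads over both libraries stand at 0.12 to 0.158 CPM.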

Other observations

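In peat, the paired-read and single-read libraries gave levels within 1.5-fold of each other in 102 of the 105 members. The largest gap was that of protein ID 40388 (1314 nt, chosen with its values in view), with 14.8 CPM in the paired-read and 27.1 CPM in the single-read library. It had 8.64 and 4.9 CPM on BSA and 8.25 and 7.99 CPM on glucose, and without the peat single-read library its smaller fold was 1.79.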
